A study of Mus musculus with 79 samples.

Results

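The growth hormone and IGF1 axis was followed through 10 genes, from the hypothalamic hormones and receptors that set growth hormone release (Ghrh, Sst, Ghsr) through growth hormone (Gh), the receptors (Ghr, Igf1r) and IGF1 (Igf1) to 3 IGF binding proteins (Igfbp2, Igfbp3, Igfbp5). The genes were taken by name, because mutant mice of this line are small, from the 25965 genes of the expression table. All 10 were above the expression limit used for testing, 0.1 RPKM (reads per kilobase of exon, scaled to 1000000 mapped reads) in at least 4 libraries. Expression was measured by RNA-seq in the adult hypothalamus of 5 Dnmt3a +/+ and 4 Dnmt3a Δ/D329A mice. H3K4me3, H3K27me3, H3K36me3 and input were measured by native ChIP-seq in 3 mice of each genotype. All mice were 14 weeks old and of a C57BL/6 background. The maternal allele is written first. Δ is an allele from which a loxP-flanked exon was removed in the oocyte by Zp3-Cre, and D329A is a point mutation in the PWWP domain of the DNA methyltransferase DNMT3A, a domain that binds methylated H3K36. The D329A allele was the only functional Dnmt3a allele of Δ/D329A mice, in every tissue. RNA was from females, and chromatin was from males, so that no animal gave both. Each library was 1 animal.

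Growth hormone is made in the anterior pituitary. GHRH neurons of the arcuate nucleus stimulate its release, somatostatin neurons of the periventricular hypothalamus inhibit it, and the receptor encoded by Ghsr, which binds the stomach hormone ghrelin, raises both growth hormone release and feeding. Growth hormone acts through its receptor, chiefly on the liver, to raise IGF1, which drives growth through IGF1R, is carried by the IGF binding proteins and feeds back on hypothalamus and pituitary. Whole hypothalamus therefore holds the top of the axis and the local receptors and binding proteins, but neither the main source of growth hormone nor that of circulating IGF1.

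The promoters of these genes were of different kinds, and the following sequences are shown because the marks described later were read around them. RefSeq promoters, from 250 bases before to 50 bases after an annotated start, were available here for 9 of the 10 genes on GRCm38.p6. They are written 5′ to 3′ on the strand of the gene, with CG dinucleotides in capitals. Igf1r had 48 CG dinucleotides in its 300 bases, more than 98.8% of all 32851 mouse promoters in the table, whose median was 7, and it carried the most H3K4me3 of the axis. Sst and Ghsr had 13 and 16, and both carried H3K27me3 as well as H3K4me3. Igf1, and the upstream Ghrh promoter, had 6 each.
Igf1r, chr7:67952007-67952306, plus strand: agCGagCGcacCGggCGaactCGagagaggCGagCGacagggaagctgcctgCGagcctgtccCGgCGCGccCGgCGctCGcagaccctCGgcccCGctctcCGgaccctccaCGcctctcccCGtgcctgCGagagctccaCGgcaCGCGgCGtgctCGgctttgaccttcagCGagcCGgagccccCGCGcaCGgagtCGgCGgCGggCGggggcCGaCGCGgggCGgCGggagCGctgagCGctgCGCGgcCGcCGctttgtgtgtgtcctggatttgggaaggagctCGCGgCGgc
Sst, chr16:23890795-23891094, minus strand: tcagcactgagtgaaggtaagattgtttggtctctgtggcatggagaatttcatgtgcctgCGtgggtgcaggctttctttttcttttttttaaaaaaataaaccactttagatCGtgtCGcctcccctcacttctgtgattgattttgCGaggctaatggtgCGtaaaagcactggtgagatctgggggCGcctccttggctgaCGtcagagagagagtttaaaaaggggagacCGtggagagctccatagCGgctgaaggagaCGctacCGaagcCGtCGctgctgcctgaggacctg
Ghsr, chr3:27371101-27371400, plus strand: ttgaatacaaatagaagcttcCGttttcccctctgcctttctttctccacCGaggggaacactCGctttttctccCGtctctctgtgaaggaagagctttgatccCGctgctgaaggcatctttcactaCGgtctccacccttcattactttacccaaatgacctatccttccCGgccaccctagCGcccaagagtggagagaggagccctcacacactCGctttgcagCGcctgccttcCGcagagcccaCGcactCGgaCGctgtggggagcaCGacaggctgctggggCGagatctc
Igf1, chr10:87860861-87861160, plus strand: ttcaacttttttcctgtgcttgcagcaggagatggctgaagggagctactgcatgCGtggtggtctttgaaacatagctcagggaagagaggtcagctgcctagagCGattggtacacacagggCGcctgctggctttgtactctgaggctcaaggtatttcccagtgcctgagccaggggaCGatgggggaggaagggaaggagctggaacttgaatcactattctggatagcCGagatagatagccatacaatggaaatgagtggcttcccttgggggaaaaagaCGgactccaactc
Ghrh upstream, chr2:157346606-157346905, minus strand: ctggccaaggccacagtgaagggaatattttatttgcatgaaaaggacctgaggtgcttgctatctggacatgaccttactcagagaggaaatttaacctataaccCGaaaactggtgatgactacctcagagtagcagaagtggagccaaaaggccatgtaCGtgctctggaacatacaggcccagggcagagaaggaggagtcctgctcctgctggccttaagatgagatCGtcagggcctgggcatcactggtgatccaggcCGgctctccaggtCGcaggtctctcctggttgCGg
Ghrh downstream, chr2:157337377-157337676, minus strand: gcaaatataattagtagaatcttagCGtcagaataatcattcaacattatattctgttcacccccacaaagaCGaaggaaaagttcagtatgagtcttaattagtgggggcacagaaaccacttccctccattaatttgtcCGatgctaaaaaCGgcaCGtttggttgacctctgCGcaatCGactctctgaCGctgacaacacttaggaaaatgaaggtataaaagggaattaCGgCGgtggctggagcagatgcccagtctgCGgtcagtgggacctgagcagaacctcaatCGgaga

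The letters of the cAMP response element, TGACGTCA, a palindrome, stood in the Sst promoter from position −48, counted from the start, and in no other member promoter. They were in 1.79% of all promoters in the table. TATAAA, searched on both strands, stood at position −31 of the downstream Ghrh promoter and, on the opposite strand, at −188 of the second of the Ghr promoters, against 13.6% of all promoters that hold these letters somewhere in the 300 bases. The other members had 8 to 37 CG dinucleotides, the most in Igfbp3. A match of letters is a description and not a measured site.

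The RNA-seq libraries held 5404919 to 9625802 reads on genes in +/+ and 3776938 to 6408171 in Δ/D329A. Reads of Xist were present in all 9 libraries, and 4 Y-linked genes together had 1 read. All 9 hypothalamus markers examined had reads in every library, with summed levels of 352 to 714 RPKM in +/+ and 418 to 621 RPKM in Δ/D329A. The sum does not show each marker. Of the 9, 4 were lower on average in Δ/D329A and 5 higher, and Sim1 had 218 to 263 reads in +/+ and 71 to 124 in Δ/D329A. Markers of cortical projection neurons, of which 5 of 6 had reads in all libraries, summed to 1.90 to 2.67 RPKM in +/+ and 2.57 to 3.83 in Δ/D329A, and their part in the results was not tested. Dnmt3a itself had a mean of 1.91 ± 0.16 log2 RPKM over the +/+ libraries (SD, n = 5) and of 1.63 ± 0.09 over the Δ/D329A libraries (n = 4), a difference of −0.28 (SE 0.13) that did not pass limma's test (adjusted p = 0.355), and gene totals do not separate its alleles. Between +/+ and Δ/D329A, 19 of 17839 genes tested (0.107%) passed limma at an adjusted p under 0.01. No member of the axis was among them. In data simulated from these libraries, the same fit found 0 of 200 genes changed by 1 on the log2 scale and 200 of 200 changed by 2, so that the absence of a call for a smaller difference carries little weight. edgeR, run on whole reads worked back from the deposited log2 RPKM, found 191 of 200 at a change of 1. The simulation gave all genes the same fixed spread and placed the changes only in genes above a minimum of reads. It does not measure how often edgeR finds a change in low or uneven members such as Ghrh and Gh.

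The order of the members, per length and on the log2 RPKM scale, was the same at its top in both genotypes. In +/+ it ran, by mean, Sst, Igfbp5, Igf1r, Igfbp2, Ghrh, Igfbp3, Ghr, Ghsr, Gh and Igf1. Sst, at 5.81, was above 99.3% of the genes in the table, Igfbp5, at 4.09, above 95.6%, and Igf1, at −0.97, near the middle (50.6%). The first 3 steps of this order had ranges that did not overlap, with a difference of 1.72 ± 0.25 between Sst and Igfbp5, 1.42 ± 0.18 between Igfbp5 and Igf1r and 1.23 ± 0.96 between Igf1r and Igfbp2 (SD over 5 +/+ libraries). From Igfbp2 down, the ranges of neighbours in the order overlapped.

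**Figure D1:**
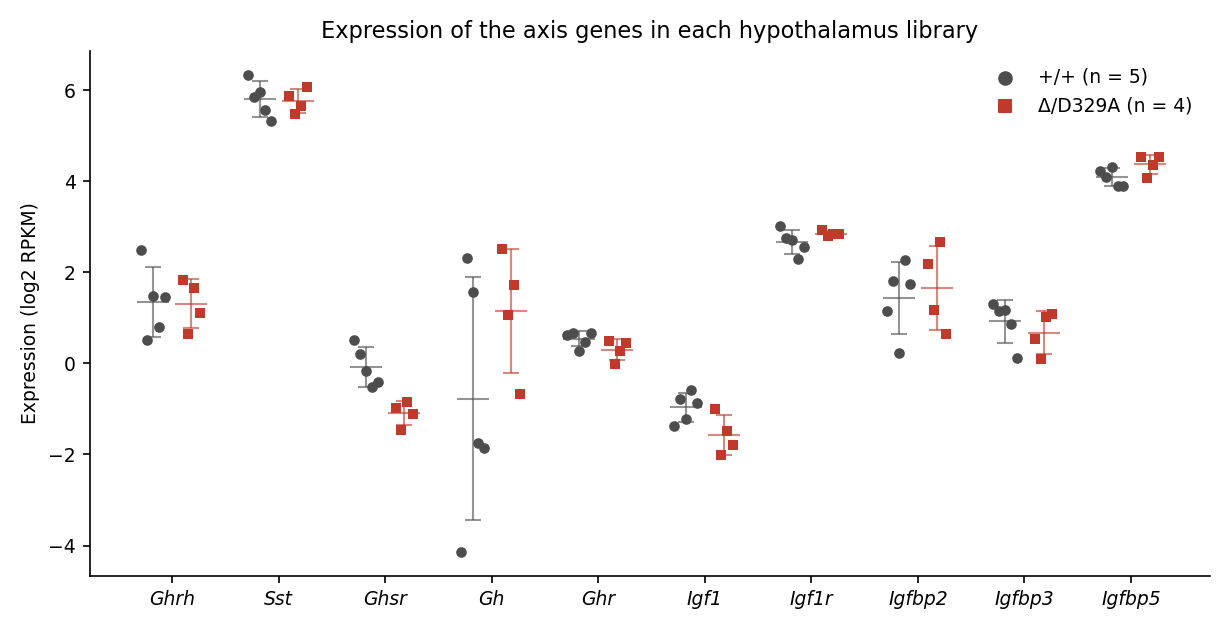
Expression of the 10 axis genes, in log2 RPKM on the vertical axis, with 1 point per library for 5 +/+ and 4 Δ/D329A mice and the mean of each genotype as a bar. The 4 Δ/D329A points of Ghsr lie below the 5 +/+ points, whereas for each of the other 9 genes the genotypes overlap.

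Ghrh and Sst, the hypothalamic hormones that raise and lower growth hormone release, had nearly equal means in the genotypes, but with quite different precision. Ghrh (chromosome 2, 157329497 to 157347506, minus strand) was a low transcript, and its level was 2.49, 0.52, 1.48, 0.80 and 1.46 log2 RPKM in the 5 +/+ libraries and 1.84, 0.65, 1.66 and 1.11 in the 4 Δ/D329A libraries. The +/+ libraries held 15 to 69 reads of it and the Δ/D329A libraries 11 to 35. The highest and the lowest library were both +/+, 3.91-fold apart, and the Δ/D329A libraries all lay between them. The difference was −0.04 (SE 0.38), with a 95% interval of −0.89 to 0.81, which spans a change of nearly 1 on the log2 scale either way. It did not pass limma (adjusted p = 0.990) or the exact permutation test (p = 0.937, two-sided), and its sign changed without +/+ replicate 1 (0.25).

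Sst (chromosome 16, 23889581 to 23890844, minus strand) was the most abundant transcript of the axis, with 6.35, 5.86, 5.95, 5.56 and 5.34 log2 RPKM in +/+ and 5.88, 5.48, 5.65 and 6.08 in Δ/D329A. All 4 Δ/D329A libraries fell within the range of the +/+ libraries. The difference was −0.04 (SE 0.23, 95% interval −0.54 to 0.46), and it did not pass (limma adjusted p = 0.982). Scaled to 1000000 reads on genes in each library, Sst had 82.7 ± 6.59 (SD, n = 5) in +/+ and 80.0 ± 9.39 (n = 4) in Δ/D329A.

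Ghsr, the ghrelin receptor, was the member that set the genotypes apart. The gene (chromosome 3, 27371351 to 27378010, plus strand) was at 0.52, 0.21, −0.16, −0.52 and −0.42 log2 RPKM in +/+ and at −0.98, −1.46, −0.84 and −1.10 in Δ/D329A. These values came from 117, 80, 53, 48 and 56 reads in +/+ and from 33, 17, 33 and 23 reads in Δ/D329A. Every Δ/D329A library was below every +/+ library, as for 219 of the 17839 genes tested (1.23%). The mean was −0.07 ± 0.43 (SD, n = 5) in +/+ and −1.09 ± 0.27 (n = 4) in Δ/D329A. The difference of −1.02 (SE 0.25, 95% interval −1.57 to −0.47) corresponds to 0.494 of the +/+ level (0.338 to 0.722). The exact permutation test gave p = 0.00794, two-sided, which is the smallest that 5 animals against 4 allow.

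Whether Ghsr passes a test over all genes depended on the test. In limma the adjusted p was 0.235 on the values as deposited, and the adjusted p was 0.0222 after centring libraries on their median, 0.0179 after quantile normalization and 0.0330 with library weights, all above the limit of 0.01. edgeR's quasi-likelihood test gave −1.04 with an adjusted p of 0.00821, where it called 76 of 13866 genes (0.548%), and DESeq2 gave −1.04 with an adjusted p of 0.00125, where it called 249 of 16426 (1.52%). Ghsr was the only member that either of these tests called. With each library left out in turn, the difference lay between −1.13 and −0.87. Scaled to 1000000 reads on genes, Ghsr had 12.2, 11.7, 8.98, 8.86 and 10.4 in +/+ and 5.15, 4.50, 5.94 and 4.74 in Δ/D329A. In whole tissue, fewer cells that make a transcript and less of it per cell cannot be told apart.

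**Figure D2:**
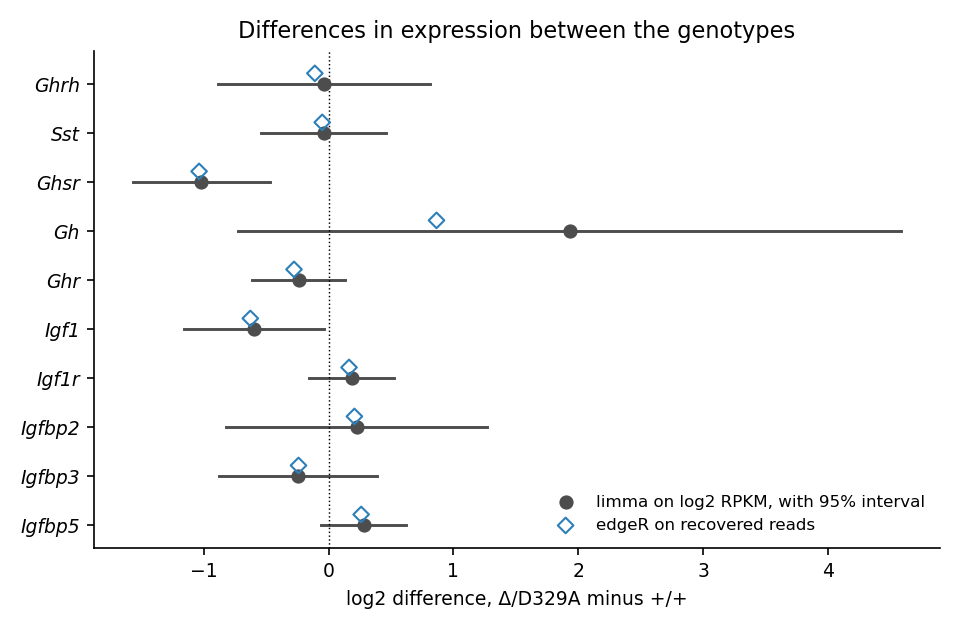
Difference in expression of each axis gene between the genotypes, as Δ/D329A minus +/+ on the log2 scale (horizontal axis), with filled points and 95% intervals from limma on log2 RPKM and open diamonds from edgeR on recovered reads. Ghsr is at −1.02 and −1.04, and the interval of Gh, −0.72 to 4.59, is the widest.

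Ghsr is expressed in the arcuate nucleus among other sites, and markers of arcuate neurons were read beside it. All 8 markers had reads in all 9 libraries, and their summed level was 42.1 to 113 RPKM in +/+ and 23.9 to 64.3 in Δ/D329A, so that the ranges overlapped. Of the 8, 6 were lower on average in Δ/D329A, with a median of −0.53 on the log2 scale against 0.06 over all genes. limma called none of them. Agrp and Slc6a3 were above 0, and Slc6a3, the dopamine transporter, was at 1.01 (SE 0.95). Cartpt, a feeding-related neuropeptide also made outside the arcuate nucleus, had 264 to 661 reads in +/+ and 115 to 237 in Δ/D329A, a difference of −0.81 (SE 0.23) with an adjusted p of 0.355 in limma and 0.00249 in edgeR. Agrp, which marks arcuate neurons known to express Ghsr, was at 0.14 (SE 0.49), with 12 to 46 and 9 to 65 reads. Kiss1 was at −1.28 (SE 0.49), Pomc at −1.06 (SE 0.45) and Npy at −0.70 (SE 0.57). Tac2, at −0.36 (SE 0.31), and Prlr, at −0.20 (SE 0.16), were lower by less. Tanycyte markers, 5 of 5 lower on average, summed to 6.82 to 13 RPKM in +/+ and 5.06 to 9.22 in Δ/D329A. Sim1, 1 of the hypothalamus markers, was at −0.82 (SE 0.17), with an adjusted p of 0.155 in limma, 0.00864 in edgeR and 0.000105 in DESeq2. The part of these cell types and of Sim1 in the result was not tested.

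Gh was detected at levels that differed between mice of 1 genotype far more than between genotypes. It had 0, 67, 34, 4 and 4 reads in +/+ and 72, 19, 38 and 6 in Δ/D329A, with the library without a read at the deposited floor of 0.9 reads. In log2 RPKM these were −4.14, 2.31, 1.56, −1.74 and −1.86 against 2.51, 1.07, 1.73 and −0.68. High and low libraries occurred in both genotypes. The difference of 1.93 (SE 1.2, 95% interval −0.72 to 4.59) did not pass limma (adjusted p = 0.511). On recovered reads, where the floor plays no part, edgeR gave 0.86 (adjusted p = 0.634). Gh is on chromosome 11, from 106300271 to 106301865, on the minus strand.

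Other anterior pituitary transcripts varied as well. Of 8 markers, Prl and Lhb had reads in all 9 libraries, and the summed level ran from 0.448 to 12.2 RPKM in +/+ and from 1.37 to 6.24 in Δ/D329A. Prl, the prolactin gene, had 2, 137, 71, 11 and 31 reads in +/+ and 38, 12, 4 and 3 in Δ/D329A, whereas Pou1f1, a transcription factor of the cells that make growth hormone and prolactin, had 1 read in all libraries together. The part of pituitary RNA in the Gh values was not tested.

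**Figure D3:**
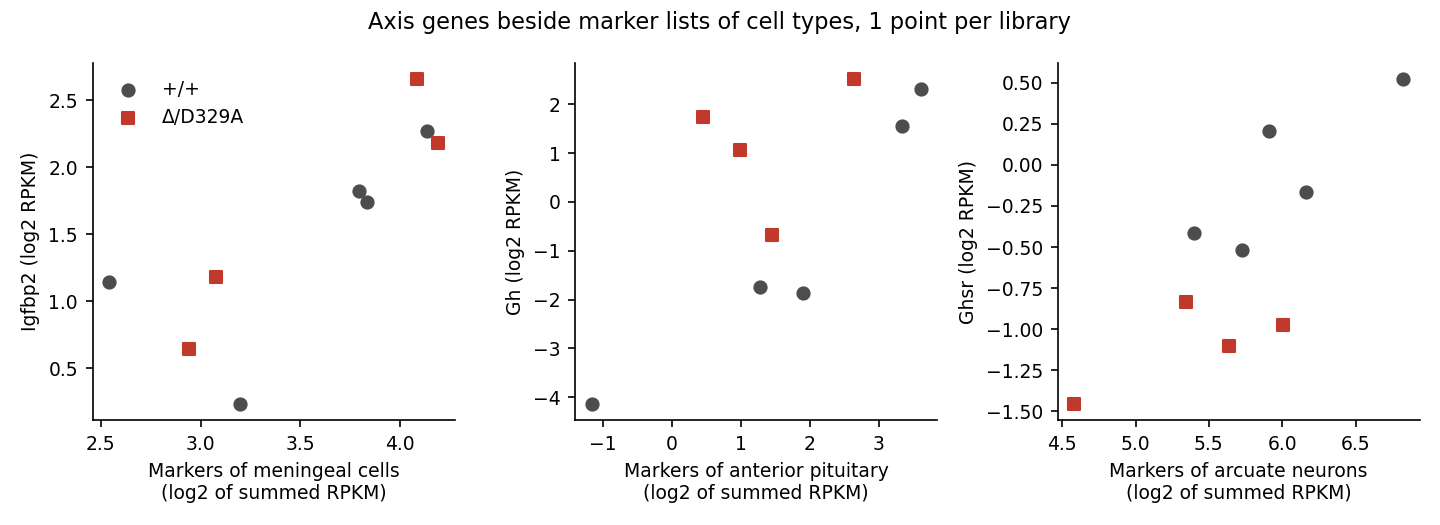
Level of Ghsr, Gh and Igfbp2 in log2 RPKM (vertical axes) beside the log2 of the summed RPKM of arcuate, anterior pituitary and meningeal markers (horizontal axes), with 1 point per library. The 5 libraries highest in Igfbp2 are the 5 highest in meningeal markers, and the genotypes overlap along that axis. Of the 5 libraries highest in each, Ghsr and arcuate markers share 4, and Gh and anterior pituitary markers share 3. Of the 4 highest, each of the pairs shares 3.

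The receptors of growth hormone and IGF1 were among the steadier members. Ghr (chromosome 15, 3317760 to 3583492, minus strand) was at 0.62, 0.66, 0.28, 0.47 and 0.67 log2 RPKM in +/+ and at 0.50, −0.02, 0.28 and 0.44 in Δ/D329A. Only Δ/D329A replicate 2 lay below all +/+ libraries. The difference was −0.24 (SE 0.17, 95% interval −0.61 to 0.13), and neither limma (adjusted p = 0.596) nor the exact permutation test (p = 0.103) passed. Igf1r (chromosome 7, 67952859 to 68226780, plus strand) was at 3.02, 2.76, 2.71, 2.29 and 2.56 in +/+ and at 2.93, 2.79, 2.85 and 2.83 in Δ/D329A. The 4 Δ/D329A values lay inside the +/+ range, and the difference was 0.18 (SE 0.15, 95% interval −0.15 to 0.52, limma adjusted p = 0.695).

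Igf1, the growth factor itself, had the lowest mean of the members in +/+ and a lower mean in Δ/D329A. By median, Gh was lower in +/+ (−1.74 against −0.86), and Gh was above Igf1 in 2 of 5 +/+ libraries. The level of Igf1 (chromosome 10, 87858265 to 87937042, plus strand) was −1.38, −0.78, −1.22, −0.59 and −0.86 log2 RPKM in +/+ and −0.99, −2.0, −1.49 and −1.78 in Δ/D329A. The +/+ libraries held 57 to 102 reads of it and the Δ/D329A libraries 26 to 73. Of the 4 Δ/D329A libraries, 3 lay below every +/+ library and replicate 1 lay among them. The difference of −0.60 (SE 0.25, 95% interval −1.16 to −0.04) was among the 7.62% of all genes with an unadjusted p under 0.05 in limma, and its adjusted p was 0.355. The exact permutation test gave p = 0.0556, and edgeR gave −0.63 with an adjusted p of 0.265. The 3 tests therefore left Igf1 short of a call, and scaled to 1000000 reads on genes its groups overlapped as well, at 13.2 ± 4.85 (SD, n = 5) and 8.33 ± 2.20 (n = 4).

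The binding proteins, which hold IGFs in tissue and plasma and can limit or prolong their action, had 3 different profiles. Igfbp5 (chromosome 1, 72857932 to 72874884, minus strand) was abundant and tight, at 4.24, 4.09, 4.33, 3.90 and 3.90 log2 RPKM in +/+ and 4.53, 4.08, 4.36 and 4.53 in Δ/D329A. Of the Δ/D329A libraries, 3 were above every +/+ library and replicate 2 was not. The difference was 0.28 (SE 0.15, 95% interval −0.06 to 0.62), with an adjusted p of 0.412 in limma and a p of 0.0873 in the exact permutation test. On the scale of 1000000 reads on genes the groups did not overlap, with 216, 234, 273, 256 and 280 in +/+ and 317, 282, 294 and 317 in Δ/D329A (exact permutation p = 0.0159). The share of all genes whose groups did not overlap on this scale was not counted. In log2 RPKM, where the groups of Igfbp5 overlapped, it was 3.0% of 17839 genes in either direction. edgeR and DESeq2 gave 0.26 with adjusted p of 0.185 and 0.140.

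Igfbp2 (chromosome 1, 72824503 to 72852474, plus strand), the neighbour of Igfbp5 on the chromosome, was the most uneven of the 3. It was at 1.14, 1.82, 0.23, 2.27 and 1.74 log2 RPKM in +/+ and 2.19, 1.18, 2.66 and 0.64 in Δ/D329A. Both genotypes held high and low libraries, and the difference of 0.22 (SE 0.47, 95% interval −0.82 to 1.27, limma adjusted p = 0.927) was smaller than the spread within each. Meningeal markers, 6 of 6 with reads in all 9 libraries, summed to 5.82 to 17.6 RPKM in +/+ and 7.69 to 18.3 in Δ/D329A, and the 5 libraries highest in them were the 5 highest in Igfbp2. Of the 4 libraries highest in each, 3 were shared. The part of meningeal markers in the Igfbp2 values was not tested. Igfbp3 (chromosome 11, 7206086 to 7213923, minus strand), the main carrier of IGF1 in plasma, was at 1.30, 1.14, 1.18, 0.88 and 0.11 in +/+ and 0.53, 0.09, 1.01 and 1.09 in Δ/D329A. Its groups overlapped over most of their range, with a difference of −0.24 (SE 0.29, 95% interval −0.87 to 0.39, limma adjusted p = 0.836).

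Over the 10 members the differences had a median of −0.04, against 0.06 over all genes, with 4 above 0 and 6 below. A wider list of 37 genes of the same pathway was read beside them, covering ghrelin, somatostatin receptors, factors of GHRH neurons, IGF2, other binding proteins, proteases that free IGFs, and signalling downstream of the receptors. Of these, 33 were tested in limma, 29 in edgeR and 31 in DESeq2, and none passed in any of them. In limma, 12 were above 0 and 21 below, with a median of −0.14. The genes under the expression limit were Ghrhr, the GHRH receptor of the pituitary, Mboat4, which acylates ghrelin, Igfbp1 and Igfals.

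Pappa, a protease that frees IGFs from binding proteins, was the 1 gene of the wider list at an unadjusted p under 0.05 in limma. There were 4 such genes after median centring and in edgeR, 7 in DESeq2 and 8 after quantile normalization, with 26 of the 33 then below 0. Over all genes the number at this p also rose, from 1360 of 17839 in limma to 2453 after median centring and 2687 after quantile normalization. It was 2251 of 13866 in edgeR and 2298 in DESeq2, which adjusted p for 16426 genes. The counts of the list were not tested against these. The mean of Pappa was −1.82 ± 0.32 log2 RPKM over the +/+ libraries (SD, n = 5) and −2.51 ± 0.61 over the Δ/D329A libraries (n = 4), a difference of −0.69 (SE 0.30) with an adjusted p of 0.355 in limma. The list was led in +/+ by Grb10, an inhibitor of insulin and IGF1 receptor signalling, at 3.83 ± 0.32 and 3.70 ± 0.13, by Irs4, an adaptor below these receptors, at 3.41 ± 0.33 and 3.24 ± 0.17, and by Gpr101, an orphan receptor, at 3.20 ± 0.36 and 3.06 ± 0.18. Their differences, −0.14, −0.17 and −0.14 with SE of 0.17 to 0.19, did not pass (limma adjusted p of 0.803 to 0.865).

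The genes whose pattern over the 9 libraries was most like that of the hypothalamic members were found by the mean absolute difference of log2 RPKM after centring each gene, among 17838 others. For Ghsr these were Pon2 (0.16), Cdc42ep2 (0.16) and Gm14964 (0.16), against a median of 0.56 over all genes. For Sst they were Bcl10 (0.04), Ube2q1 (0.05) and Mtap (0.06), against a median of 0.24. For Ghrh, a transcript of few reads, they were D330012F22Rik (0.19), Gm15417 (0.20) and Sox12 (0.21), against 0.49. No gene followed Ghrh as closely as Bcl10 followed Sst. Libraries were not centred for this. The median log2 RPKM of tested genes ran from 0.81 to 1.49 over the +/+ libraries and from 0.91 to 1.22 over the Δ/D329A libraries. The part of these shifts between libraries in the likeness was not tested.

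The marks were read as the mean deposited signal, in reads scaled to 1000000 uniquely mapped reads (RPM). Tiles of 2000 bp were taken whose centre lay from 1500 bp before to 500 bp after the start listed with each gene's expression. This listed start is not always the outermost, as a RefSeq start lies further upstream at Igf1r and Igfbp2. H3K4me3 marks active and poised starts, H3K27me3 is the mark of Polycomb repression, and H3K36me3 is laid down along transcribed gene bodies. Libraries held 12676361 to 26178088 reads for the 3 marks. Input at these windows was 0.530 to 1.22 RPM. The median promoter had 4.42 RPM of H3K4me3 in Δ/D329A replicate 1 and 5.39 to 6.44 in the other 5 libraries, so that this library read low at promoters in general. No promoter of 25574 (0%) passed limma for H3K4me3 or for H3K27me3 (0%), and 4 (0.0156%) passed for H3K36me3, none of them a member. In simulated data this fit found 0 of 200 promoters changed by 1 on the log2 scale, and 105 to 113 of 200 changed by 2. With 3 animals against 3, an exact permutation test cannot give a p under 0.1.

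In +/+ the axis genes fell into separate chromatin states. Igf1r had 46.3 ± 2.47 RPM of H3K4me3 (SD, n = 3), above 99.8% of promoters, and Ghr had 22.7 ± 0.64, above 81.5%, and both had H3K27me3 of only 0.21 ± 0.13 and 0.42 ± 0.05. Around the RefSeq start of Igf1r, 602 bp upstream, H3K4me3 was 37.2 ± 2.78 RPM, above 97.3% of RefSeq starts. Sst, the most abundant transcript, had more H3K27me3 than 98.0% of promoters (4.78 ± 0.75) and 2.31 ± 0.72 of H3K4me3, below the median of 6.17. Ghsr had H3K27me3 of 4.37 ± 0.43, above 97.4% of promoters, with 4.88 ± 0.51 of H3K4me3. Igf1 was above 94.7%, Igfbp2 above 92.3%, Igfbp3 above 85.9% and Igfbp5 above 85.2% for H3K27me3. Gh had 0.14 ± 0.02 of H3K4me3, below its input, and Ghrh had 3.68 ± 0.29 of H3K4me3 and 0.27 ± 0.22 of H3K27me3. In chromatin of a whole tissue, both marks in the same cells and each mark in different cells cannot be told apart.

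**Figure D4:**
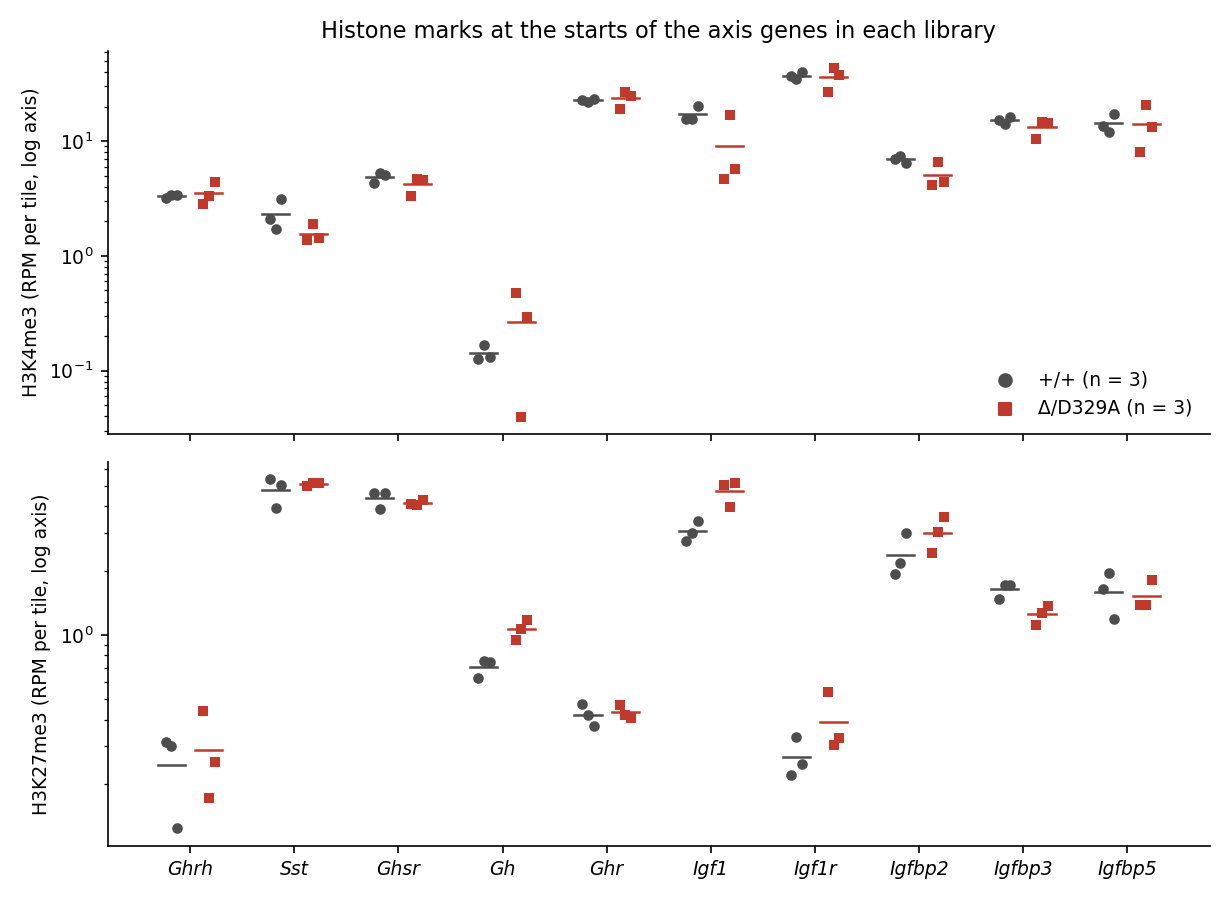
H3K4me3 and H3K27me3 at the starts of the axis genes, in RPM per tile on log axes, in windows around the RefSeq start (for Gh, the listed start), with 1 point per library for 3 +/+ and 3 Δ/D329A mice. Igf1r and Ghr are highest in H3K4me3, and the genotypes overlap at most starts. In H3K27me3, Sst and Ghsr have the highest means in +/+, and Sst and Igf1 in Δ/D329A.

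H3K4me3 at the listed starts did not separate the genotypes at any of the 10 members, against 6.14% of all promoters whose groups did not overlap. The members' differences had a median of −0.17, against −0.07 over all promoters, and ranged from −0.60 to 0.38. Ghsr was at 4.30, 5.25 and 5.09 RPM in +/+ and 3.32, 4.69 and 4.58 in Δ/D329A, with the lowest value in Δ/D329A replicate 1 (−0.22, SE 0.19). Sst was at 2.09, 1.73 and 3.12 against 1.38, 1.89 and 1.42 (−0.51, SE 0.31), and Igfbp2 at 6.93, 7.35 and 6.47 against 4.17, 6.59 and 4.42 (−0.47, SE 0.20). In both, 1 Δ/D329A library lay among the +/+ libraries. No member was at an unadjusted p under 0.05, as 3.41% of promoters were. edgeR, which could test 9 members and called 77 of 15878 promoters (0.485%), called none of them (lowest adjusted p = 0.547).

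The H3K4me3 of Ghsr was highest just inside the gene, outside that window. A second window, with tiles centred from the start to 2000 bp inside the gene, was therefore added after the values had been seen. There Ghsr was at 9.04, 9.44 and 9.26 RPM in +/+ and 4.92, 6.47 and 7.65 in Δ/D329A. All 3 Δ/D329A libraries were below all +/+ libraries, with the lowest again in replicate 1, and the difference was −0.56 (SE 0.18, 95% interval −0.99 to −0.13, limma adjusted p = 1). The groups did not overlap at 2 of the 10 members in this window, Ghsr and Igfbp2, both lower in Δ/D329A, against 5.9% of all promoters in either direction.

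Ghrh had its H3K4me3 near the upstream of its promoters. Around the listed start, 851 bp before the upstream RefSeq start, it was at 3.67, 3.39 and 3.97 RPM in +/+ and 3.01, 3.55 and 5.10 in Δ/D329A, a difference of 0.05 (SE 0.23). Around the upstream RefSeq start it was at 3.16, 3.43 and 3.38 against 2.85, 3.31 and 4.39. The downstream start, where the TATAAA letters stand, lies 10080 bp from the listed start into the gene. There H3K4me3 was at 0.22, 0.53 and 0.66 against 0.53, 0.04 and 0.65. All 6 values were below those of input in the same window, 0.753 to 1.29 RPM.

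H3K27me3 at the listed starts was highest at Sst and Ghsr, and around these 2 starts the genotypes overlapped. Sst was at 5.35, 3.93 and 5.06 RPM in +/+ and 4.97, 5.12 and 5.13 in Δ/D329A (0.10, SE 0.14, 95% interval −0.23 to 0.42). Ghsr was at 4.63, 3.87 and 4.61 against 4.10, 4.05 and 4.26 (−0.07, SE 0.11, 95% interval −0.33 to 0.19). At both genes the Δ/D329A libraries lay between the +/+ libraries. Input in this window of Ghsr was 0.544 to 0.733 RPM in +/+ and 0.747 to 1.03 in Δ/D329A, and as a ratio to input the differences of Ghsr were −0.47 for H3K27me3 (limma adjusted p = 0.650) and −0.62 for H3K4me3 (adjusted p = 1).

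The groups did not overlap at Igfbp3, at 1.48, 1.71 and 1.71 in +/+ and 1.11, 1.26 and 1.37 in Δ/D329A (−0.37, SE 0.13), or at Gh, at 0.63, 0.75 and 0.74 against 0.94, 1.07 and 1.17 (0.52, SE 0.16). These 2 of 10 stand against 13.8% of all promoters whose groups did not overlap and 8.83% at an unadjusted p under 0.05. Their adjusted p in limma were 0.526 and 0.473. edgeR, testing 8 members and calling 187 of 12476 promoters (1.5%), called no member (lowest adjusted p = 0.212). In the window inside the gene, H3K27me3 of Ghsr was at 2.99, 3.0 and 3.02 RPM in +/+ and 3.60, 3.48 and 3.38 in Δ/D329A. All Δ/D329A libraries were there above all +/+ libraries (0.21, SE 0.09, 95% interval −0.01 to 0.42, limma adjusted p = 0.571). The groups did not overlap at 4 members in that window, against 13.4% of all promoters, with Ghsr, Gh and Igf1 higher and Igfbp3 lower in Δ/D329A. The largest of these differences was that of Gh, 0.97 (SE 0.15, limma adjusted p = 0.277). Gh was there at 1.04, 0.93 and 1.09 RPM in +/+ and 2.45, 1.83 and 2.01 in Δ/D329A.

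The values of Igf1 depended on the start that was read. Its listed start lay 2846 bp upstream of the RefSeq start, and there H3K4me3 was 1.18 ± 0.49 RPM (SD, n = 3) in +/+. Around the RefSeq start, read after the first values had been seen, H3K4me3 was 15.6, 15.5 and 20.3 RPM in +/+ and 4.67, 16.8 and 5.74 in Δ/D329A. Replicates 1 and 3 of Δ/D329A were far below, whereas replicate 2 lay within the +/+ range. The difference was −1.14 (SE 0.45, 95% interval −2.21 to −0.06), and did not pass limma over 19638 RefSeq starts (adjusted p = 1).

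H3K27me3 at the same Igf1 start was 2.74, 3.0 and 3.42 RPM in +/+ and 5.04, 3.99 and 5.15 in Δ/D329A. All 3 Δ/D329A libraries were above all +/+ libraries, and the library closest to +/+ was again replicate 2. The difference was 0.61 (SE 0.15, 95% interval 0.27 to 0.95), with an adjusted p of 0.380 in limma. Groups failed to overlap at 13.6% of all RefSeq starts for H3K27me3, a reading added after values had been seen. At the listed start it was 3.18, 2.76 and 3.07 against 3.87, 3.06 and 3.78, or 0.24 (SE 0.13, limma adjusted p = 0.622). At neither start did Igf1 pass.

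Igfbp2 had groups that did not overlap in both marks at only 1 of its starts, the upstream of its 2 RefSeq starts. Around the listed start, 23 bp away, and around the other RefSeq start the windows took in other tiles. There the groups overlapped in both marks. At the upstream RefSeq start H3K4me3 was 3.13, 3.43 and 3.12 RPM in +/+ and 2.16, 3.08 and 2.19 in Δ/D329A (−0.38, SE 0.24, limma adjusted p = 1), where 5.9% of all RefSeq starts did not overlap. H3K27me3 was 1.51, 2.07 and 1.83 against 2.29, 2.39 and 2.61 (0.42, SE 0.15, 95% interval 0.07 to 0.77, limma adjusted p = 0.499), where 13.6% of all RefSeq starts did not overlap. The Δ/D329A libraries were all lower in the first mark and all higher in the second.

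**Figure D5:**
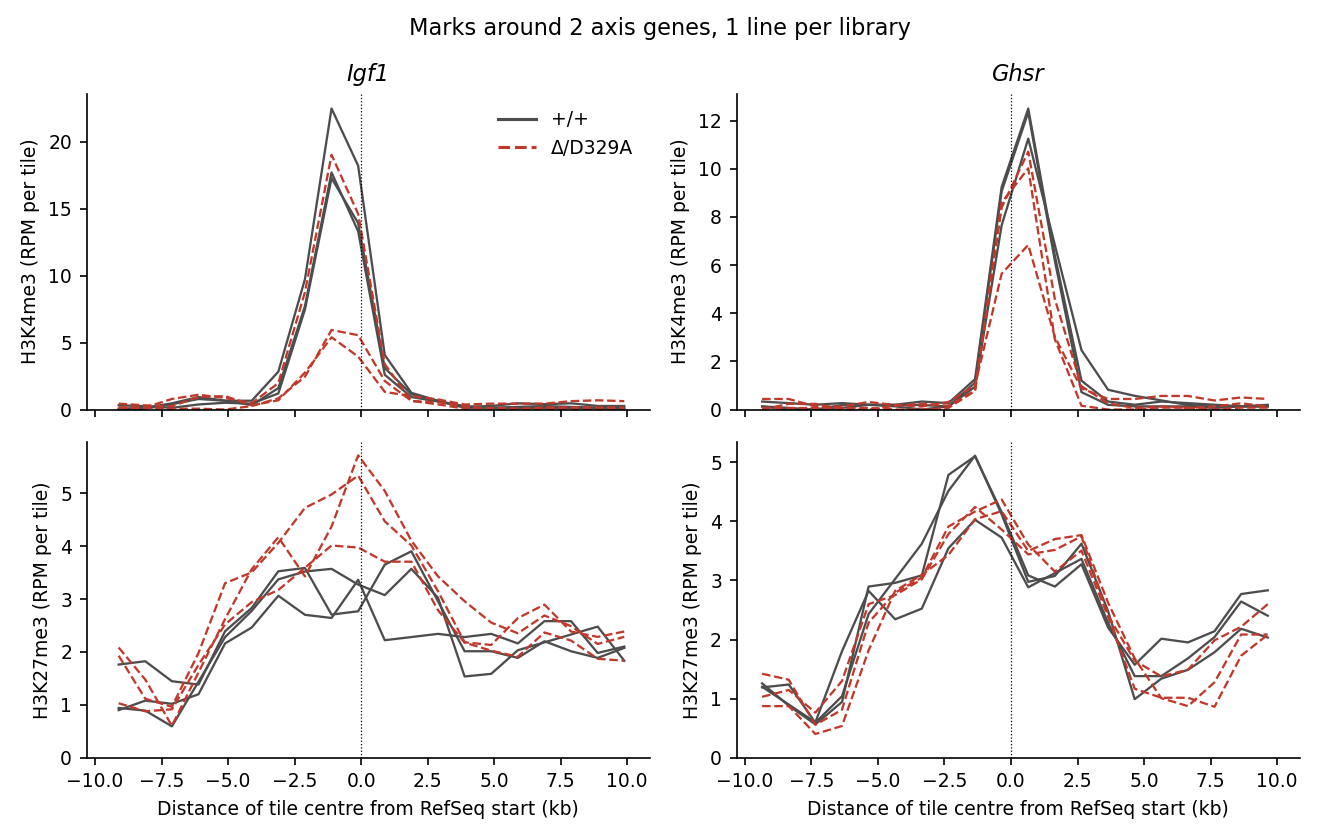
H3K4me3 and H3K27me3 in RPM per tile (vertical axes) against the distance of the tile centre from the RefSeq start in kb (horizontal axes) around Igf1 and Ghsr, with 1 line per library. At Igf1 replicates 1 and 3 of Δ/D329A are low in H3K4me3 and replicate 2 follows the +/+ lines, and at Ghsr the Δ/D329A lines are below the +/+ lines in H3K4me3 and above them in H3K27me3 just inside the gene, and overlap with them in H3K27me3 just upstream of the start.

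H3K36me3 at the members' promoters was at most 0.657 RPM, and its differences rest on few reads. The groups did not overlap at Igf1, Igfbp3 and Igfbp5, all higher in Δ/D329A, against 11.8% of all promoters that did not overlap in either direction and 6.57% at an unadjusted p under 0.05. Of these, Igfbp3 was at 0.04, 0.07 and 0.05 RPM in +/+ and 0.17, 0.12 and 0.13 in Δ/D329A (0.63, SE 0.16, limma adjusted p = 0.723). Over all promoters the median difference was 0.11, and it was −0.07 once libraries were centred on their median. The same centring moved the median for H3K4me3 from −0.07 to 0.12.

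Within gene bodies, where H3K36me3 belongs, 8 members were long enough to be read. None of 21539 gene bodies (0%) passed limma, while 3659 (17%) had an unadjusted p under 0.05. Ghsr was at 0.43, 0.31 and 0.30 RPM in +/+ and 0.52, 0.53 and 0.55 in Δ/D329A. Each Δ/D329A value was above each +/+ value, a difference of 0.53 (SE 0.13, 95% interval 0.22 to 0.83, limma adjusted p = 0.206), at a level below its input of 0.719 to 1.02 RPM. Igfbp3, the member richest in the mark, was at 1.03, 1.08 and 1.14 against 0.86, 0.93 and 0.80, with all Δ/D329A libraries lower (−0.29, SE 0.07, 95% interval −0.47 to −0.11, limma adjusted p = 0.213). Groups failed to overlap in 23% of all gene bodies, against 2 of 8 members. The other 6 differed by −0.05 to 0.05, with no group apart from the other.

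Set side by side, the measures of Ghsr were a lower transcript level in females, called by edgeR and DESeq2 but not by limma (adjusted p = 0.235), and 3 marks in males. The groups of H3K4me3 and H3K27me3 overlapped around the start and did not just inside the gene, a window added after values had been seen. Those of H3K36me3 in the gene body did not overlap. Over all promoters or gene bodies, groups did not overlap in 5.9%, 13.4% and 23% for these 3 readings. No mark passed limma at Ghsr. For Igf1 the measures were a lower mean transcript level in females that did not pass and, in males, a lower mean of H3K4me3 and a higher mean of H3K27me3 at the RefSeq start that did not pass either. Sex, animal and assay cannot be told apart in these pairs. DNA methylation at these genes was not analysed here.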

How the data were processed

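The authors trimmed the RNA-seq reads, mapped them to GRCm38 with HiSat2, counted them over merged exons in SeqMonk and deposited log2 RPKM values, in which a gene lacking reads in a library sits at a floor of 0.9 reads. The deposited ChIP-seq signal was made by the authors from reads mapped with Bowtie over tiles of 2000 bp every 1000 bp, scaled to the total of uniquely mapped reads, without subtraction of input. The RNA-seq libraries are described as strand-specific, but whether strand was used in counting is not given in the sources used here, and if it was not, reads of overlapping antisense transcripts cannot be separated. The authors dropped 1 more Δ/D329A library of RNA-seq for low quality, and the bisulfite libraries were not used here.

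Whole reads were recovered for 99.988% of genes (within 0.02 reads) and for every ChIP-seq tile (within 0.01). Genes at 0.1 RPKM or more in at least 4 libraries were tested together in limma 3.58.1 (R 4.3.3), with a trend of variance on the mean, and called at a p under 0.01 after Benjamini-Hochberg adjustment over all of them. Marks were compared with limma on log2(RPM + 0.1) over 25574 promoters and 21539 gene bodies of at least 2 tiles, at an adjusted p under 0.05. edgeR 4.0.16 and DESeq2 1.42.0 on recovered reads, other scalings, limits, windows and libraries left out were alternatives. Single values were compared with two-sided exact permutation tests of all 126 splits. Scripts were tested on simulated data with 200 changed features. Promoter sequences were from RefSeq.

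The members and lists were chosen with earlier results of these data known. Named outside the members were genes of the wider list with an unadjusted p under 0.05, at most 10, the 3 of it highest in +/+, and the 3 genes most like Ghrh, Sst and Ghsr over the libraries. Sim1, Cartpt, Agrp, Slc6a3, Kiss1, Pomc, Npy, Tac2, Prlr, Prl, Lhb, Pou1f1 and the 4 genes under the expression limit were named after their values were seen. Marker lists of cortical and striatal neurons, choroid plexus, endothelial cells, microglia, astrocytes, erythroid cells and immediate early genes were also read, and limma called none of their genes.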

Additional observations from a re-analysis of the deposited data

How the results depend on the processing

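Ghsr had the same direction under 19 of 19 alternatives, between −1.13 and −0.42 on the log2 scale (the smallest with a pseudocount of 1 RPKM), and passed only in edgeR and DESeq2, which each called 1 of the 10 members, so that its call depends on the test. Gh, Ghr, Igf1, Igf1r, Igfbp3 and Igfbp5 also had 1 direction under all 19, but not 1 size. Gh went from 1.93 to 0.17 with library weights and to 1.09 without +/+ replicate 1, Igf1 from −0.60 to −0.17 with a pseudocount of 1 RPKM, Igfbp3 from −0.24 to −0.05 and Ghr from −0.24 to −0.13 without Δ/D329A replicate 2, Igfbp3 to −0.45 without +/+ replicate 5, and Igf1r from 0.18 to 0.09 without +/+ replicate 4. The difference of Ghrh turned to 0.54 with library weights and lay between −0.25 and 0.25 with 1 library left out, above 0 without +/+ replicate 1, Δ/D329A replicate 2 or Δ/D329A replicate 4. That of Sst lay between −0.16 and 0.095, above 0 without +/+ replicate 1, Δ/D329A replicate 2 or Δ/D329A replicate 3, and that of Igfbp2 between −0.11 and 0.57, below 0 without replicate 3 of either genotype. For the marks, H3K4me3 at Ghrh was −0.063 with mitochondrial coverage as a covariate and between −0.16 and 0.21 with 1 library left out (below 0 without +/+ replicate 2 or Δ/D329A replicate 3), and at Ghsr 0.0019 after quantile normalization. H3K27me3 at Sst was −0.13 as a ratio to input, −0.046 in the window inside the start, −0.0089 in edgeR and between −0.035 and 0.18 with 1 library left out (below 0 without +/+ replicate 2), and at Ghsr 0.13 with a window of 1000 bp either side, 0.046 with a single tile, 0.023 in DESeq2 and 0.21 in the window inside the start, and H3K36me3 at Igfbp3 −0.11 in that window. The cause of these turns was not tested.

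Counts over all genes moved more than the members did. For expression, 19 genes (15 higher, 4 lower) became 34 (22 and 12) after median centring, 32 (16 and 16) after quantile normalization, 34 with library weights, 11 at a limit of 0.5 RPKM, 76 (40 and 36) in edgeR, 249 (132 and 117) in DESeq2 and 11 to 18 with 1 library left out, the lowest without Δ/D329A replicate 4 (11) and replicate 1 (12). For H3K4me3, 0 promoters became 50 after quantile normalization, 43 after median centring, 271 at a limit of 0.2 RPM, 77 in edgeR and 189 in DESeq2. For H3K27me3, 0 became 3 with a pseudocount of 0.5 RPM, 156 after quantile normalization, 74 after median centring, 220 at the limit of 0.2 RPM, 187 in edgeR and 73 in DESeq2. For H3K36me3 at promoters, 4 became 2 after median centring, 11 at the limit of 0.2 RPM, 0 with a pseudocount of 0.5 RPM, as a ratio to input, in the window inside the start, in edgeR and in DESeq2, and 2 to 13 with 1 library left out (13 without Δ/D329A replicate 1 or 2, 9 without +/+ replicate 1, 8 without Δ/D329A replicate 3, 2 without +/+ replicate 3). No member's promoter or gene body passed under any of these. Windows around RefSeq starts and inside the start were added after seeing the data. Mitochondrial coverage as a covariate was not run for H3K36me3, because its split did not hold both genotypes.

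Replicate numbers are shared by the genotypes but did not pair the samples: deviations from the group means correlated at 0.14, −0.05, −0.05 and −0.05 for RNA-seq and at 0.07, −0.26 and 0.23 for H3K4me3. With a replicate block, 16 genes were called for expression and 0 promoters for H3K36me3, no member passed, and Ghsr was at −1.10 (limma adjusted p = 0.196). Depth limits Ghrh, Gh, Ghsr and Igf1 most, with at most 117 reads in any library, and a p over the libraries measures the spread between animals only.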
